A study of Mus musculus with 8 samples.

Results

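Dkk3, its relative Dkk2, the secreted Frizzled-related genes Sfrp1, Sfrp2, Sfrp4, Sfrp5 and Frzb, the Wnt inhibitory factor gene Wif1 and the Wnt target Axin2 were followed in the tibialis anterior (TA), a fast-twitch muscle of the lower leg, of aged mice. These 9 genes were taken by symbol from the deposited gene table, which holds 16686 genes. Dkk3 was chosen by its measured level, which was lower in the knockout, so its difference between the genotypes is given as a description without a test. The other 8 genes were added as its functional relatives. Of the 9, 7 passed the filter on low counts and were among the 12542 genes tested, and Sfrp2 and Wif1 did not.

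RNA was sequenced from TA muscles of 4 WT and 4 C2-/- mice, all male, on the FVBN background and labelled as 22 months old. The study asked what the loss of fast myosin binding protein-C does to old muscle. In C2-/- mice, a knockout of the whole body, exons 2 to 22 of Mybpc2, its gene, are replaced by a Neo cassette between LoxP sites. There was 1 library per mouse, with 25425993 to 29747692 counts in all. Levels are CPM, the count of a gene divided by the size of its library and set to a common scale. TMM factors correct them for the make-up of each library. By library totals without these factors, 3 counts correspond to 0.101 to 0.118 CPM, a limit that covers counting error alone.

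Wnt proteins are secreted signals that bind Frizzled receptors together with the co-receptors Lrp5 and Lrp6, which spares beta-catenin from destruction and lets it act with TCF/LEF factors on target genes. Secreted Frizzled-related proteins and Wif1 bind the Wnt proteins themselves, while Dkk proteins of the Dkk1 and Dkk2 type bind Lrp5 and Lrp6. Dkk3 is the divergent member of the Dickkopf family, and its action on Wnt signaling is less settled. Axin2 is a scaffold of the beta-catenin destruction complex and a feedback target that is widely used as a readout of the pathway.

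The targeted gene was checked first. Mybpc2 was at 4960, 5450, 5100 and 7390 CPM in WT replicates 1 to 4 and at 4.35, 4.02, 38.3 and 3.85 CPM in C2-/- replicates 1 to 4. Every C2-/- library was far below every WT library, as the labels have it, and C2-/- replicate 3 kept more of this RNA than the other 3. The 7 myofibre markers summed to between 139000 and 186000 CPM in every library, as a skeletal muscle would show.

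Dkk3 encodes a secreted glycoprotein (gene ID 50781) and lies on the minus strand of chromosome 7 of GRCm38, from 112116019 to 112159121, 67.6 Mb from Mybpc2 on the same chromosome. No exon of another annotated gene overlaps its exons in GENCODE vM21. In WT muscle, Dkk3 was at 80.4, 52.5, 53.5 and 266 CPM in replicates 1 to 4. In C2-/- muscle, it was at 24.3, 19.0, 28.4 and 14.0 CPM. All C2-/- mice lay below all WT mice, and the lowest WT mouse was 1.85 times as high as the highest C2-/- mouse. In RNA of a whole muscle, fewer cells of a type and less RNA per cell cannot be told apart.

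WT replicate 4 stood apart from the other WT mice, with 4.29 times their mean Dkk3 level. The mean level of Dkk3 was 113 ± 103 CPM (SD, n = 4) in WT and 21.4 ± 6.28 CPM (SD, n = 4) in C2-/-, a ratio of WT to C2-/- of 5.28. Without WT replicate 4, the WT mean was 62.1 ± 15.8 CPM (SD, n = 3) and the ratio was 2.90. The fitted log2 fold change of Dkk3, C2-/- against WT, was -2.40 with a standard error of 0.52 (edgeR), and it was -1.53 without WT replicate 4. The C2-/- mean was 18.9% of the WT mean with all mice and 34.5% when that mouse was left out. The coefficient of variation of Dkk3 was 90.9% in the 4 WT mice and 29.3% in the 4 C2-/- mice. WT replicate 4 was also the highest in the summed level of 8 immediate early genes, which respond within minutes to stress and handling. Their sums in replicates 1 to 4 were 386, 1000, 549 and 2000 CPM in WT and 298, 1370, 329 and 338 CPM in C2-/-. Their part in the level of Dkk3 was not tested.

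**Figure D1:**
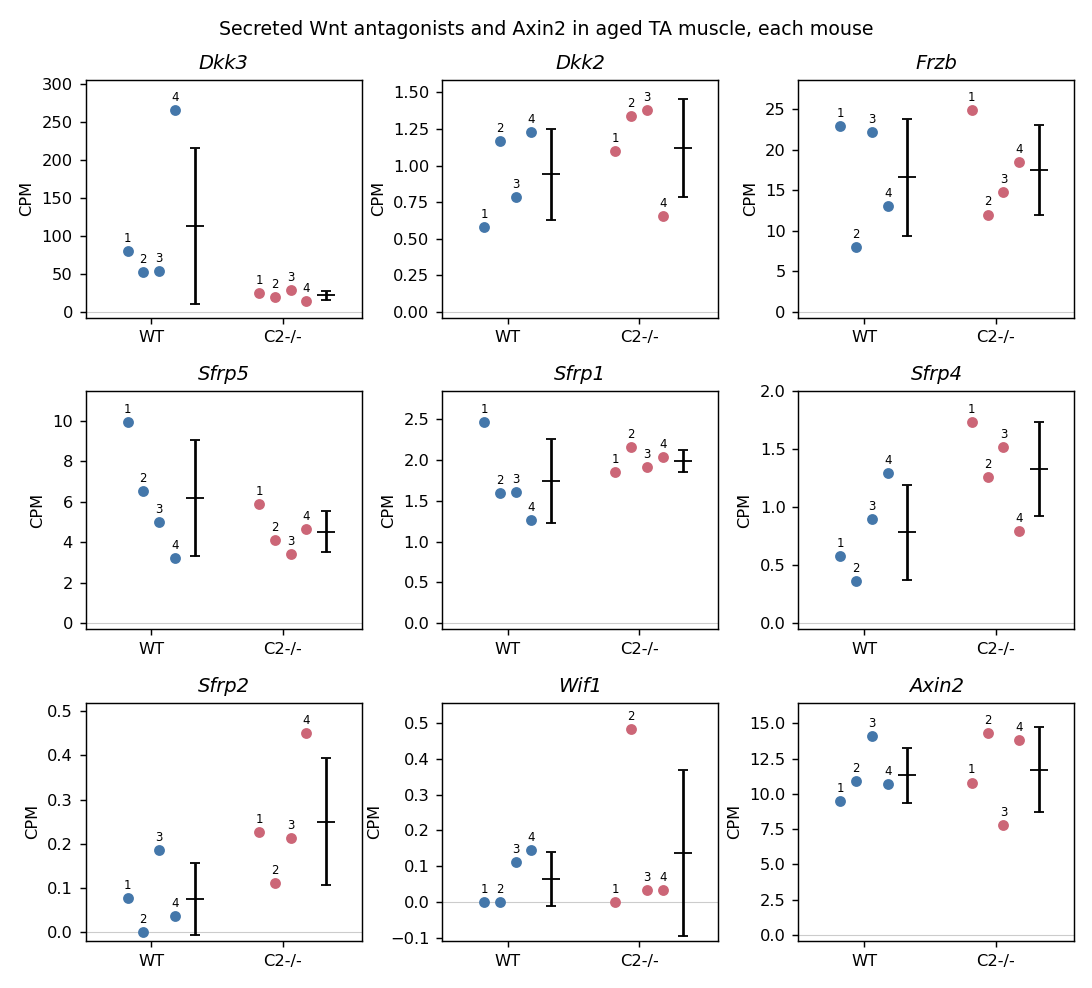
Level in CPM of each of the 9 genes in the 4 WT (blue) and 4 C2-/- (red) mice, numbered by replicate, with the mean and SD of each genotype in black. Dkk3 lay between 52.5 and 266 CPM in WT and between 14.0 and 28.4 CPM in C2-/-, while the mice of the genotypes overlapped for the other 8 genes.

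Among all genes tested, the genotypes did not overlap in 3.37%, with C2-/- the higher group in 2.02% and the lower group in 1.36%. Of the other 8 members, 0 had groups without overlap, which includes all 6 that were tested. Nothing is read from the gap in Dkk3, for which it was chosen.

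Dkk2 encodes the Dickkopf protein that binds Lrp5 and Lrp6 (gene ID 56811, chromosome 3, 132085243 to 132180304). It was scarce, at 0.578, 1.17, 0.784 and 1.23 CPM in WT and 1.10, 1.34, 1.38 and 0.658 CPM in C2-/-. These levels rest on 15 to 39 counts per mouse, and 2 C2-/- mice lay just above the highest WT mouse while C2-/- replicate 4 was among the lowest. The fit (edgeR's quasi-likelihood test) put Dkk2 at 0.25 on the log2 scale, C2-/- against WT, with a standard error of 0.35, a 95% interval of -0.53 to 1.02 and adjusted p = 0.982. The low Dkk3 of C2-/- muscle was thus not accompanied by a difference in Dkk2 that passed the test, though the interval reaches from 0.694 to 2.03 times the WT level. Dkk1 and Dkk4, the other Dickkopf genes, were not analysed here.

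Frzb, also known as Sfrp3, was the most abundant Frizzled-related gene (gene ID 20378, chromosome 2, 80411970 to 80447396). Its level was 22.9, 8.02, 22.2 and 13.1 CPM in WT and 24.9, 12.0, 14.8 and 18.5 CPM in C2-/-. The highest mouse was C2-/- and the lowest was WT replicate 2, with the other 6 intermixed. The means were 16.6 ± 7.23 CPM in WT and 17.5 ± 5.59 CPM in C2-/- (SD, n = 4 each). Fitted with edgeR, Frzb differed by a log2 value of 0.08 (SE 0.33, 95% interval -0.65 to 0.81, adjusted p = 0.996).

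Sfrp5, a secreted antagonist best known from fat tissue (gene ID 54612, chromosome 19, 42197971 to 42202252), was the only one of the 6 tested members other than Dkk3 with a negative estimate. It was at 9.95, 6.53, 5.0 and 3.22 CPM in WT and at 5.86, 4.13, 3.44 and 4.64 CPM in C2-/-. The highest values came from WT replicates 1 and 2, but WT replicate 4 was below every C2-/- mouse. In edgeR, Sfrp5 had a log2 fold change of -0.45 (SE 0.31, 95% interval -1.14 to 0.25, adjusted p = 0.968, or 0.181 before adjustment). Single mice moved it widely, from -0.65 without WT replicate 4 (adjusted p = 0.971 in edgeR, or 0.0359 before adjustment) to -0.12 without WT replicate 1. Adipocyte markers summed to 89.6 to 133 CPM over 6 genes in WT and 95.3 to 146 CPM in C2-/-. Most of this sum was Fabp4, at a mean of 93.3 CPM in WT and 94.0 CPM in C2-/-. Of the 6 markers, 5 were higher and 1 lower in estimate, with a median log2 fold change of 0.75. In edgeR, 0 of them had an unadjusted p under 0.05. The part of adipocytes in the level of Sfrp5 was not tested.

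Sfrp1 (gene ID 20377) was at 2.47, 1.60, 1.61 and 1.27 CPM in WT and at 1.85, 2.16, 1.91 and 2.04 CPM in C2-/-. All C2-/- mice lay inside the WT range, in a narrower band with a coefficient of variation of 6.79% against 29.6% in WT. Its log2 fold change in edgeR was 0.20 (SE 0.25, 95% interval -0.35 to 0.75, adjusted p = 0.976).

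Sfrp4, a gene of connective tissue cells (gene ID 20379, chromosome 13, 19623175 to 19632825), had the largest positive estimate of the tested members. It was at 0.578, 0.365, 0.896 and 1.30 CPM in WT, from 10 to 36 counts, and at 1.74, 1.26, 1.52 and 0.797 CPM in C2-/-, from 23 to 46 counts. Of the C2-/- mice, 2 lay above every WT mouse, and C2-/- replicates 2 and 4 lay within the WT range. In edgeR, Sfrp4 reached a log2 fold change of 0.76 (SE 0.41, 95% interval -0.16 to 1.67, adjusted p = 0.968, or 0.0956 before adjustment). With 1 mouse left out, it ran from 0.53 without WT replicate 2 (adjusted p = 0.994 in edgeR, or 0.198 before adjustment) to 1.13 without WT replicate 4 (adjusted p = 0.971 in edgeR, or 0.0251 before adjustment), and it was 0.46 with sample quality weights in limma-voom.

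Sfrp2, which fibroblasts secrete, lay near the limit of detection (gene ID 20319, chromosome 3, 83766158 to 83789957). It had 2, 0, 5 and 1 counts in WT and 6, 3, 6 and 13 counts in C2-/-, or 8 against 28 counts in all. The groups overlapped, since WT replicate 3 had more counts than C2-/- replicate 2. Up to 224 bases of a Sfrp2 exon are shared with an antisense gene, Gm26771, and whether counting used the strand is not given in the sources used here. Sfrp2 did not pass the filter, and without a filter its adjusted p was 0.867 (edgeR).

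Wif1, whose product binds Wnt proteins through its WIF domain (gene ID 24117), was barely detected. It had 0, 0, 3 and 4 counts in WT and 0, 13, 1 and 1 counts in C2-/-. Only WT replicate 4 and C2-/- replicate 2 exceeded 3 counts, and no fold change is given.

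Markers of connective tissue cells were read beside Sfrp2 and Sfrp4. The 9 fibroblast markers summed to 723 to 885 CPM in WT and 925 to 1150 CPM in C2-/-, without overlap. All 9 had positive estimates, beside 5738 of all 12542 tested genes. Of the 9, 5 had groups without overlap (beside 2.02% of all tested genes in this direction). In edgeR, 4 had an unadjusted p under 0.05 (beside 3.38%) and 0 were called with an adjusted p. None of the 9 was at 0 in any library. The 9 tenocyte markers summed to 59.7 to 197 CPM in WT and 100 to 277 CPM in C2-/-, with Kera at 0 in 1 library. Of the 8 tested, 7 were higher in estimate, 2 of them with an unadjusted p under 0.05 in edgeR. Estimates were also positive for all 6 pericyte and smooth muscle, all 6 macrophage and 5 of 6 adipocyte markers. Fewer were positive for endothelial (4 of 6), myofibre (3 of 7), satellite (1 of 4 tested) and Schwann cell (1 of 6) markers. The part of any of these cells in the levels of Sfrp2 and Sfrp4 was not tested.

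**Figure D2:**
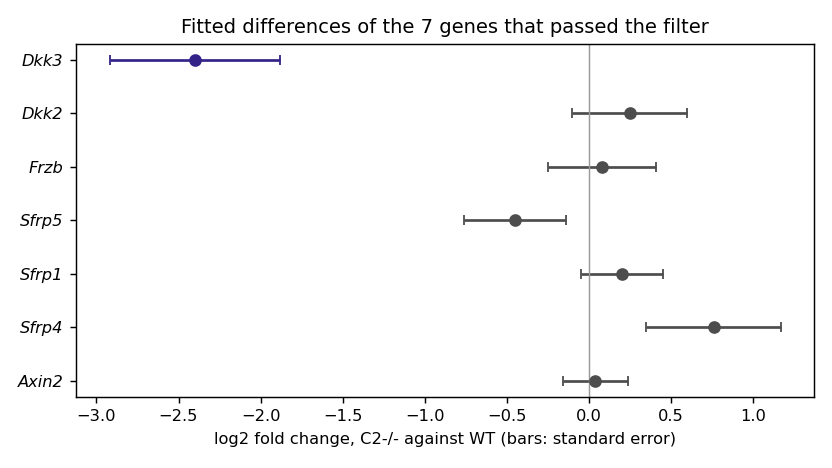
Fitted log2 fold change, C2-/- against WT, with its standard error, for the 7 genes that passed the filter on low counts. Dkk3, which was chosen for this difference, sits at -2.40, and the other 6 lie between -0.45 and 0.76.

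Across the tested genes, 4 of 12542 (0.0319%) were past 1.5-fold with an adjusted p under 0.05 (0.0239% higher and 0.00797% lower in C2-/-), and 380 (3.03%) were past 1.5-fold with an unadjusted p under 0.05 (2.05% higher and 0.981% lower), both in edgeR. Of the 6 tested members other than Dkk3, 0 were called with the adjusted p and 0 with the unadjusted p in edgeR, and limma-voom and DESeq2 also gave 0 by either. Their median log2 fold change was 0.14, beside -0.02 for all tested genes, with 5 estimates above 0 and 1 below.

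To set the antagonists side by side, their CPM were divided by transcript length in kilobases. Dkk3 was counted among them, although its action on Wnt signaling is less settled, so the sums are of RNA and not of antagonist activity. In WT, Dkk3 was the highest by this per-length level, at 15.6 to 79.3 CPM per kilobase, and it did not overlap with Frzb, the next, at 2.55 to 7.28. Sfrp5 followed at 1.69 to 5.23 CPM per kilobase and overlapped with Frzb. Sfrp1, Dkk2 and Sfrp4 had mean per-length levels of 0.397, 0.254 and 0.194 CPM per kilobase in WT, with overlap between neighbours, and Sfrp2 and Wif1 were lower still, at 0.0374 and 0.0280.

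In C2-/- muscle, Dkk3 and Frzb had like per-length levels. Dkk3 was at 6.38 ± 1.87 CPM per kilobase (SD, n = 4) and Frzb at 5.57 ± 1.78 (SD, n = 4). Frzb exceeded Dkk3 in 2 of the 4 C2-/- mice against 0 of the 4 WT mice. This contrast rests on the choice of Dkk3 for its lower level. Behind Dkk3 and Frzb, the order was again Sfrp5 and Sfrp1, while Sfrp4 and Dkk2 traded places within their spread.

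Dkk3 thus made up 64.1%, 69.8%, 60.0% and 92.0% of the summed per-length level of the 8 antagonists in WT replicates 1 to 4. In C2-/- replicates 1 to 4, its share was 37.1%, 43.3%, 52.0% and 30.7%. The shares did not overlap between the genotypes, which follows from the choice of Dkk3. The other 7 antagonists together were at 13.4, 6.75, 10.6 and 6.89 CPM per kilobase in WT and at 12.3, 7.41, 7.80 and 9.40 in C2-/-. All C2-/- sums lay inside the WT range, with means of 9.42 ± 3.21 CPM per kilobase in WT and 9.22 ± 2.20 in C2-/- (SD, n = 4 each).

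**Figure D3:**
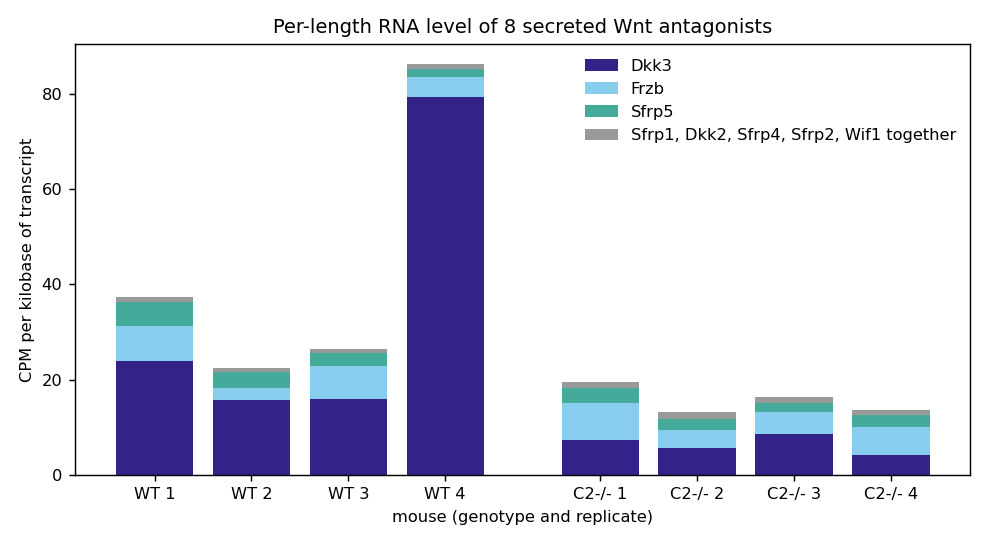
Stacked per-length RNA level (CPM per kilobase of transcript) of the 8 secreted Wnt antagonists, Dkk3 counted among them, in each mouse. Dkk3, Frzb and Sfrp5 are shown separately and the other 5 genes together. The part above Dkk3 lies between 6.75 and 13.4 CPM per kilobase in WT and between 7.41 and 12.3 in C2-/-. The Dkk3 part separates the genotypes, which follows from the choice of Dkk3.

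Axin2 (gene ID 12006, chromosome 11, 108917828 to 108950783), the feedback target among the members, was at 9.52, 10.9, 14.1 and 10.7 CPM in WT and at 10.8, 14.3, 7.77 and 13.8 CPM in C2-/-. The lowest and the highest of the 8 mice were both C2-/-. For Axin2, edgeR gave a log2 fold change of 0.04 (SE 0.20, 95% interval -0.41 to 0.50, adjusted p = 0.996), so that the interval spans 0.751 to 1.41 times the WT level. Up to 105 bases of an Axin2 exon are shared with the antisense gene Gm11670.

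The rest of the Wnt pathway was read from 8 lists of genes by role. Of their 98 genes, 91 are in the table and 66 were tested. Of these, 0 were called with an adjusted p under 0.05 by edgeR, limma-voom or DESeq2. With an unadjusted p under 0.05 at any fold, edgeR gave 3 higher and 3 lower genes, beside 5.29% of all tested genes (3.38% higher and 1.91% lower). The genotypes did not overlap in 1 higher and 2 lower of the 66 genes, beside 2.02% and 1.36% of all tested genes. The median log2 fold change of the 66 genes was -0.04, with 29 higher and 37 lower in estimate. With library totals alone as the scaling, which moved the median of all genes from -0.02 to 0.04, 36 were higher and 30 lower.

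Of the 6 tested Wnt ligands, 3 were higher and 3 lower in estimate. Wnt4 had the highest per-length level of them, with a log2 fold change of -0.07 (SE 0.17). Wnt11, a ligand that often acts outside the beta-catenin branch, was at 14.1, 15.1, 13.8 and 13.4 CPM in WT and at 12.3, 11.2, 9.57 and 12.2 CPM in C2-/-, without overlap. The difference in Wnt11 was small (log2 fold change -0.32, SE 0.12, adjusted p = 0.882 in edgeR, or 0.0267 before adjustment). Both secretion genes, Wls and Porcn, had estimates within 0.19 of 0 on the log2 scale.

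Among the 15 tested Frizzleds and co-receptors, 0 had an unadjusted p under 0.05 in edgeR, and 9 were higher and 6 lower in estimate. Ryk, a Wnt-binding receptor of the tyrosine kinase family, had the highest per-length level. Lrp5 and Lrp6, the receptors of Dkk2, had log2 fold changes of 0.08 (SE 0.15) and 0.01 (SE 0.21). In the R-spondin axis, which amplifies Wnt signals at the receptor, 3 of 9 genes were tested and 0 had an unadjusted p under 0.05 in edgeR. The highest of them per length was Lgr4, with a log2 fold change of 0.20.

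The other extracellular inhibitors held a gene with its highest level in the same mouse as Dkk3. Apcdd1, a membrane-bound inhibitor of Wnt signaling, was at 3.35, 1.53, 3.17 and 16.6 CPM in WT and at 1.29, 1.82, 1.99 and 2.63 CPM in C2-/-. Like Dkk3, it was highest in WT replicate 4, but unlike Dkk3 the other WT mice overlapped with C2-/-. For Apcdd1, the log2 fold change was -1.67 (SE 0.64, adjusted p = 0.882 in edgeR, or 0.0264 before adjustment), and without WT replicate 4 it was -0.46 (adjusted p = 0.971 in edgeR, or 0.210 before adjustment). Igfbp4, an insulin-like growth factor binding protein that also inhibits Wnt signaling, was at 0.28 on the same scale (SE 0.12, adjusted p = 0.927 in edgeR, or 0.0471 before adjustment). Kremen1, a receptor through which Dkk proteins act, was the most abundant per length in this list and had a log2 fold change of -0.05.

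Inside the cell, 0 of the 13 genes of the destruction complex and Dishevelled had an unadjusted p under 0.05 in edgeR, and all estimates lay between -0.20 and 0.09. Gsk3a, the kinase with the highest per-length level in this list, had a log2 fold change of -0.17, and Ctnnb1, the gene of beta-catenin, was at 158 CPM on average in both genotypes. Among the 13 tested TCF/LEF genes and cofactors, Tcf7l1, which mostly represses Wnt targets, was at 29.0, 49.7, 24.3 and 24.4 CPM in WT and at 21.5, 20.8, 24.1 and 18.4 CPM in C2-/-. The groups touched without overlap, with WT replicate 2 the highest, and the log2 fold change of Tcf7l1 was -0.59 (adjusted p = 0.878 in edgeR, or 0.0250 before adjustment), or -0.28 without WT replicate 2. Bcl9, a coactivator of beta-catenin, had a log2 fold change of 0.44 (adjusted p = 0.918 in edgeR, or 0.0378 before adjustment). Ctbp1, a corepressor, was the highest per length, with a log2 fold change of -0.04.

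Of the 10 tested common Wnt targets, 4 were higher and 6 lower in estimate. Their log2 fold changes ran from -0.46 to 0.47, with a median of -0.06. Cd44, a hyaluronan receptor of many cell types, was at 3.47, 4.01, 3.06 and 3.40 CPM in WT and at 4.62, 4.68, 5.11 and 4.92 CPM in C2-/-, without overlap. For Cd44, this was a log2 fold change of 0.47 (SE 0.15, adjusted p = 0.755 in edgeR, or 0.0109 before adjustment). The feedback inhibitor gene Nkd1 and the target Tnfrsf19 had log2 fold changes of 0.09 and -0.02. Jun, the highest of the targets per length and itself an immediate early gene, was at 107, 225, 98.1 and 331 CPM in WT and at 126, 248, 127 and 112 CPM in C2-/-, high in the same 3 mice as the other immediate early genes.

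**Figure D4:**
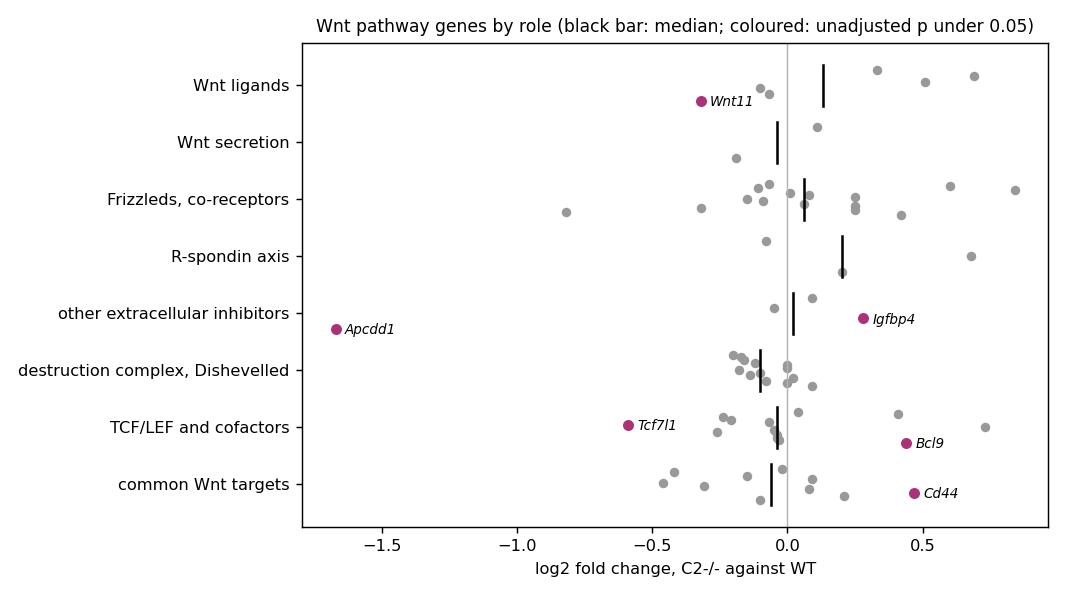
Fitted log2 fold change, C2-/- against WT, of the 66 tested genes in 8 Wnt pathway lists, 1 point per gene, with the median of each list as a black bar. The 6 named genes had an unadjusted p under 0.05, and every list's median lies between -0.10 and 0.20.

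Dkk3 has been linked to muscle atrophy, so genes of the atrophy programme were set beside it. Of the 9 atrophy genes, 8 were lower and 1 higher in estimate in C2-/-, with a median log2 fold change of -0.62, and 0 were called with an adjusted p by edgeR, limma-voom or DESeq2, while 2 lower genes had an unadjusted p under 0.05 in edgeR, beside 1.91% of all tested genes. WT replicate 2 was the highest of the 8 mice for 8 of the 9 genes. Without it, 5 genes were lower and 4 higher, the median was -0.07 and 0 had an unadjusted p under 0.05 in edgeR, as was also the case in limma-voom with all mice. Fbxo32, the ubiquitin ligase atrogin-1, was at 202, 971, 236 and 530 CPM in WT and at 207, 200, 242 and 239 CPM in C2-/-. It was highest in WT replicate 2, where Dkk3 was at 52.5 CPM, and next in WT replicate 4, where Dkk3 was at 266 CPM. The relation of Dkk3 to the atrophy genes was not tested. Fbxo32 had a log2 fold change of -1.13 (adjusted p = 0.857 in edgeR, or 0.0234 before adjustment), or -0.53 without WT replicate 2. The same 2 WT mice were the highest of their genotype in the summed immediate early genes, whose part in these levels was not tested. Cdkn1a, a cell-cycle inhibitor, reached 405 CPM in WT replicate 2 and lay between 22.5 and 43.1 CPM in the other 7 mice. The log2 fold change of Cdkn1a, -2.02 with all mice (adjusted p = 0.918 in edgeR, or 0.0369 before adjustment), was 0.01 without that mouse. Map1lc3a, the most abundant of the list per length, had a log2 fold change of -0.26.

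Of the 10 tested denervation-responsive genes, 9 were lower and 1 higher in estimate, with a median log2 fold change of -0.41. There were 0 adjusted calls by edgeR, limma-voom or DESeq2. In edgeR, 1 lower gene had an unadjusted p under 0.05, beside 1.91% of all tested genes. WT replicate 2 was the highest of the 8 mice for 8 of these 10 genes, and without it 5 were lower and 5 higher, with a median of 0.00. In that setting, 2 of the 10 had an unadjusted p under 0.05 in edgeR, beside 746 of all 12672 genes tested. With all mice, the lower gene was Chrnd (log2 fold change -0.84, SE 0.27, adjusted p = 0.755 in edgeR, or 0.0121 before adjustment). This acetylcholine receptor subunit of muscle was at 3.87 to 9.08 CPM in WT and 2.83 to 3.82 CPM in C2-/-, with the highest level in WT replicate 2. Its log2 fold change was -0.52 without that mouse (adjusted p = 0.788 in edgeR, or 0.0345 before adjustment). Chrnb1, the highest of this list per length, had a log2 fold change of -0.33, or -0.17 without that mouse. The relation of Dkk3 to the denervation genes was not tested.

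The genes whose levels over the 8 libraries were most like that of Dkk3 were found by Pearson's correlation of log2 CPM among the 12542 tested genes. They were Txlnb (r = 0.956), Pcca (r = 0.939), Fam174b (r = 0.938), Anapc5 (r = 0.920) and Grhpr (r = 0.914). These values describe 8 points that share the difference between the genotypes and the high WT replicate 4. Txlnb, a taxilin of muscle, was at 742, 738, 743 and 841 CPM in WT and at 667, 689, 713 and 626 CPM in C2-/-, in a far narrower range than Dkk3. Fam174b was at 4.97, 4.85, 3.92 and 13.0 CPM in WT and at 0.794, 0.818, 1.03 and 1.07 CPM in C2-/-, and so shared with Dkk3 both the gap between the genotypes and the peak in WT replicate 4.

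When each genotype was centred on its own mean, the 5 most alike genes were Cep192, Mid1, Hacl1, Dzip3 and Rps6kc1, with r between 0.914 and 0.957. All 5 were highest among WT mice in replicate 4, such as Mid1, a ubiquitin ligase of microtubules, at 20.9, 23.4, 16.7 and 61.5 CPM in WT against 25.6 to 39.3 CPM in C2-/-. Without WT replicate 4, over 7 libraries, Grhpr was the one gene of the former list to stay among the 5 most alike, with r = 0.965 behind Nprl2 with r = 0.976. After centring, none of the 5 stayed, and Crot was the most alike (r = 0.980). Among the other members, Sfrp4 had the highest centred correlation with Dkk3, 0.760 over 8 libraries and 0.560 over 7. Sfrp5 had the lowest over 8, at -0.567, and was at 0.265 over 7, while Axin2 was at -0.442 and -0.827. Of all tested genes, 9 exceeded 0.9 after centring over 8 libraries and 95 over 7. These values describe few points and were not tested.

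**Figure D5:**
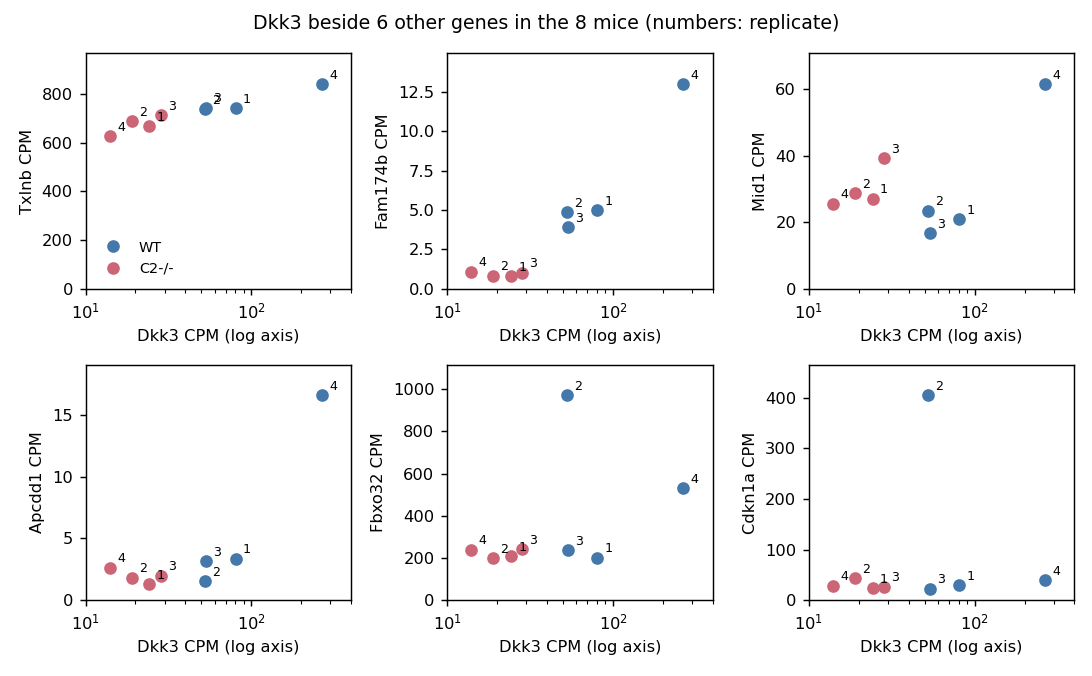
Level of Dkk3 (CPM, log axis) against that of 6 other genes (CPM) in each mouse, WT in blue and C2-/- in red, numbered by replicate. Fam174b and Apcdd1 peak in WT replicate 4 with Dkk3 (13.0 and 16.6 CPM), while Fbxo32 and Cdkn1a peak in WT replicate 2 (971 and 405 CPM).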

How the data were processed

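Polyadenylated RNA of 8 TA muscles was sequenced on DNA nanoballs. Gene by gene, the values that the authors deposited are expected counts in a single table, without normalization. The study's methods name HISAT with GRCm38.p6 and featureCounts, and the submitters' processing notes also name Bowtie2 and DESeq2. Between 5.5% and 6.53% of values per library were not whole, so counts were rounded. All mice are labelled as 22 months old, although another age entry in the labels differs. Columns of the authors' own comparison (fold change, p and q) and 16 other per-sample columns were not used.

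After 1 row without a gene was dropped, 25 symbols were restored from gene IDs. The test was edgeR 4.0.16 (R 4.3.3), quasi-likelihood with TMM, its default low-count filter and Benjamini-Hochberg adjustment over all 12542 genes, and standard errors came from the signed root of F. A call needed over 1.5-fold and an adjusted p under 0.05. The study's methods name limma-voom, used here as an alternative (limma 3.58.1), as was DESeq2 1.42.0. Per-length levels used the longest GENCODE vM21 transcript. Of these tests, only that of edgeR was also run on simulated data, with its outcome not given here.

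Members and lists were chosen with earlier results of these data known. Named genes were all members, Mybpc2, up to 3 genes per list with the smallest unadjusted p under 0.05, the gene of each list highest per length, and the 5 genes most like Dkk3. Porcn, Lrp5, Lrp6, Ctnnb1, Nkd1 and Tnfrsf19 were named outside this rule, after their values were seen. Both groups carry replicate numbers 1 to 4, with no stated pairing. Nothing says how the mice were related beyond genotype. The p-values set each difference between the genotypes against the spread between these mice.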

Additional observations from a re-analysis of the deposited data

Results flagged for a closer look

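Of 78 groups of 4 libraries that were looked at (members, Mybpc2, named genes and summed markers, in each genotype), 8 held a library whose gap to the others exceeded Dixon's 95% limit, where chance gives about 1 in 20. Among the members, these were Dkk3 in WT replicate 4, with 266 CPM, and Wif1 in C2-/- replicate 2, with 0.483 CPM from 13 counts. Mybpc2 was at 38.3 CPM in C2-/- replicate 3, against 3.85 to 4.35 CPM in the other C2-/- mice. Apcdd1 was at 16.6 CPM in WT replicate 4, the mouse that also stood apart in Dkk3. In WT replicate 2, Ctbp1 was low at 194 CPM and Cdkn1a was high at 405 CPM. In C2-/- replicate 2, Jun was at 248 CPM and the 8 immediate early genes summed to 1370 CPM.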

How the results depend on the processing

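The count of members other than Dkk3 called with an adjusted p was 0 under every alternative run, and so was that of the 8 Wnt lists. Over the whole table, 4 genes were called, 38 with DESeq2's Wald test, 380 with the unadjusted p, and 4 to 7 when each mouse was left out; the cause was not tested. Without WT replicate 4, Sfrp4 (log2 fold change 1.13) and Sfrp5 (-0.65) passed 1.5-fold with an unadjusted p under 0.05 in edgeR. They went in opposite directions, both with adjusted p = 0.971 in edgeR, and 401 of all 12691 genes tested passed likewise. The log2 fold change of Dkk3 was then -1.53. The log2 fold change of Dkk3 ran from -2.63 to -1.53 with 1 mouse left out and between -2.50 and -2.02 under the other alternatives. The estimates of Frzb and Axin2 had no stable direction. That of Frzb was -0.05 with sample quality weights in limma-voom and ran from -0.14 to 0.28 as mice were left out, and that of Axin2 ran from -0.06 to 0.19. With the replicate number as a block, 4 genes, 0 members and 0 list genes were called. Deviations of same-numbered mice correlated between -0.05 and 0.27, and 2 of the 8 libraries correlated best with their own number, so that the numbers were not taken as pairs. The medians of the atrophy and denervation lists, -0.62 and -0.41, were -0.07 and 0.00 without WT replicate 2, an alternative chosen after seeing the data. Depth limits Sfrp2 and Wif1, which had at most 13 counts per mouse.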
